A study of Mus musculus with 160 samples.

Results

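The genes described here are the 9 genes of the IL-17 and IL-22 arm of immunity, also called type 3 immunity: the cytokine genes *Il17a*, *Il17f*, *Il22* and *Il23a*, the receptor genes *Il17ra*, *Il22ra1*, *Il22ra2* and *Il23r*, and *Il10*. They were chosen as genes of the pathway, by symbol and with earlier results of these data known, out of 39179 mouse genes counted in 160 RNA-seq libraries of distal colon. The libraries came from 4 germline knockout lines. In each line homozygous knockout mice were compared with wild-type mice: *Nckap1l* (16 knockout, 15 wild type), *Dock2* (18 and 24) and *Gpsm3* (20 and 20), all 3 of strain C57BL6/J, and *Dok3* (26 and 21) of strain 129. Nckap1l, also named HEM1, and Dock2 act on the actin cytoskeleton of blood cells, Gpsm3 binds G-protein subunits and Dok3 is an adaptor of immune receptors. The lines were existing germline knockout models re-derived through C57BL6/J females, and the mice were young adults bred from heterozygous parents, wild-type mice were their littermates, and genotypes shared cages. The *Nckap1l* line held 12 female and 19 male mice and the *Dock2* line 20 female and 22 male mice, while all mice of the *Gpsm3* and *Dok3* lines were labelled male.

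The study used dextran sulfate sodium (DSS), a chemical that injures the colon epithelium and causes colitis when given in drinking water. It was given at 3% to the *Dock2* and *Gpsm3* lines and at 3.5% to the *Dok3* line, and per the study's methods at a slightly lower dose to the *Nckap1l* line and at 3% in a first round to *Dok3* mice, for 5 days. This was followed by 5 days of plain water, or 7 in the *Nckap1l* line. Tissue was taken on day 10, or day 12 in the *Nckap1l* line. The study sampled mice with DSS and mice at baseline, but the labels do not say which sample is which. Each group below may therefore hold both, and an effect of genotype and an unequal share of treated mice cannot be told apart here. Lines also differed in strain, dose, day and sample order, so no test was made between the levels of different lines.

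In type 3 immunity, IL-23 from myeloid cells acts through the IL-23 receptor on Th17 cells, gamma-delta T cells and group 3 innate lymphoid cells, which then release IL-17A, IL-17F and IL-22. IL-17A and IL-17F bind a receptor that contains IL-17RA and induce chemokines that draw neutrophils. IL-22 binds IL-22RA1 on epithelial cells and induces mucus, antimicrobial proteins and repair, and the soluble IL-22 binding protein, encoded by *Il22ra2*, captures IL-22 and blocks it. IL-10, from regulatory T cells and macrophages, restrains the inflammation.

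Positions are those of mouse build GRCm38. *Il17a* (ENSMUSG00000025929, chr1:20730905-20734496, plus strand) and *Il17f* (ENSMUSG00000041872, chr1:20777146-20790617, minus strand) are neighbours, with 42649 bases between them. *Il22* (ENSMUSG00000074695, chr10:118204942-118210047, plus), *Il23a* (ENSMUSG00000025383, chr10:128296139-128298752, minus) and *Il22ra2* (ENSMUSG00000039760, chr10:19621998-19634681, plus) are on chromosome 10. *Il10* (ENSMUSG00000016529, chr1:131019845-131024974, plus) is on chromosome 1, *Il22ra1* (ENSMUSG00000037157, chr4:135728172-135752140, plus) on chromosome 4, and *Il17ra* (ENSMUSG00000002897, chr6:120463247-120487559, plus) and *Il23r* (ENSMUSG00000049093, chr6:67422932-67491855, minus) on chromosome 6. All 9 are annotated as protein coding, and no other annotated gene overlaps any of them.

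The promoters of the 3 effector cytokine genes are shown because their transcripts are the scarce, sample-restricted ones in these data. Each sequence is from RefSeq (GRCm38.p6), runs 5′ to 3′ along the gene and covers 300 bases that end shortly after the RefSeq start. Positions are counted from that start. Capitals mark matches to AGGTCA, a half-site that nuclear receptors bind, or to TGANTCA. The latter is a loose pattern that includes sites of AP-1 factors but allows any base at its centre, so a match need not be such a site. The RefSeq start of *Il17f* lies inside the gene as bounded above, whose outer end belongs to a longer GENCODE transcript. The promoters lie at chr1:20730655-20730954 (plus strand), chr1:20784221-20784520 (minus strand) and chr10:118204714-118205013 (plus strand) in the order given.
Il17a: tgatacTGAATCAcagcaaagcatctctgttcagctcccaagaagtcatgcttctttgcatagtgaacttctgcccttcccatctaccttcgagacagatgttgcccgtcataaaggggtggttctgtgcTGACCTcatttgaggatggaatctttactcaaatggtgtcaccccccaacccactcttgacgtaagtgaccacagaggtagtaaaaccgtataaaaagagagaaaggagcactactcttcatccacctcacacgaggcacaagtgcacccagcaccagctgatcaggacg
Il17f: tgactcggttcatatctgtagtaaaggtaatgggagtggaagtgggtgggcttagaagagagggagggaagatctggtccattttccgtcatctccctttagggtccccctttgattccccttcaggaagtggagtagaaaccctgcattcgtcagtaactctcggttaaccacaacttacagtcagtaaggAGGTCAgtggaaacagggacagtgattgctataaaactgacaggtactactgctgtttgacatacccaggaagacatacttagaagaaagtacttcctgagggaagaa
Il22: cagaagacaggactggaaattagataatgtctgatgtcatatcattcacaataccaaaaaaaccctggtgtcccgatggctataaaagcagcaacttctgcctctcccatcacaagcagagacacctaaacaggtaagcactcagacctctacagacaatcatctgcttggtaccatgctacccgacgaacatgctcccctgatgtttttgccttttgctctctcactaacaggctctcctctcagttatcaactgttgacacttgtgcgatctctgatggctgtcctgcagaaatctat
The *Il17a* window held TGAATCA at positions -244 to -238 from the start and AGGTCA on the opposite strand, read here as TGACCT, at -120 to -115. The *Il17f* window held AGGTCA at -58 to -53, and the *Il22* window held neither motif. The motif TTCNNNGAA, which STAT factors bind, was in none of the 3 windows. Both strands were searched, and no 2 of these matches overlap. Of 32817 mouse promoter windows of this length, 16.3% held AGGTCA, 7.81% TGANTCA and 8.29% TTCNNNGAA, so the matches are common ones and are given as a description.

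Depth ran from 4344988 to 19993833 gene counts per library, with a median of 15989625.5. Values below are CPM, counts scaled to a common library total after TMM normalization. At these depths 3 counts, used here as the detection floor, were worth 0.15 to 0.69 CPM. Colonocyte markers summed to 495 to 9240 CPM, so every library held colon epithelium. Libraries also differed in ways the groups do not explain. Squamous skin markers, keratins such as *Krt5* and *Krt14*, averaged 6.33 to 10.44 on the log2 CPM scale in 32 of 160 libraries and -1.21 to 2.79 in the others, and 30 of those 32 were also high in striated muscle markers. They were 15 of 31 in the *Nckap1l* line, 5 of 42 in *Dock2*, 3 of 40 in *Gpsm3* and 9 of 47 in *Dok3*. In the *Nckap1l* line 13 of the 14 libraries of the first of 3 runs of consecutive sample numbers were among them. In the *Dok3* line 5 libraries labelled male (3 knockout, 2 wild type) had high *Xist* and low *Ddx3y*, and without them no member was called in that line either. The targeted gene was lower in each knockout, by a log2 fold change of -2.06 for *Gpsm3* (adjusted p = 0.0001005), -1.09 for *Nckap1l* (unadjusted p = 0.0118), -0.62 for *Dock2* (p = 0.00064) and -0.48 for *Dok3* (p = 0.223), by edgeR's quasi-likelihood test, and adjusted p passed 0.05 for *Gpsm3* alone. Its transcript remained in the knockouts, with mean log2 CPM in knockouts and wild types of 3.93 and 5.14 for *Nckap1l*, 4.51 and 5.15 for *Dock2*, -0.44 and 1.69 for *Gpsm3*, and 1.54 and 2.12 for *Dok3*. These counts cover the whole gene and need not measure its deleted part, and they do not verify the knockout label in *Dok3*, nor over all genes in *Nckap1l* and *Dock2*.

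The receptor genes *Il22ra1* and *Il17ra* were well measured, and the cytokine genes lay near the detection floor. Over all samples, the mean level per kilobase of exon was 23.2 CPM for *Il22ra1*, 3.98 for *Il17ra*, 1.34 for *Il22ra2*, 0.489 for *Il10*, 0.249 for *Il23r*, 0.147 for *Il22*, 0.123 for *Il23a*, 0.116 for *Il17a* and 0.0858 for *Il17f*. The tissue thus carried the epithelial IL-22 receptor at the highest level of the 9 and the IL-17 cytokines at the lowest. In bulk tissue, fewer cells of a type and less RNA per cell cannot be told apart. *Il22* had no count in 109 of 160 samples, *Il17a* in 93 and *Il17f* in 31. At or under 3 counts were 139 samples for *Il22*, 135 for *Il17a*, 124 for *Il17f*, 69 for *Il23a*, 57 for *Il10*, 18 for *Il23r* and 2 for *Il22ra2*. *Il22ra1* and *Il17ra* were above 3 counts in every sample, with at least 171 and 117 counts.

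**Figure D1:**
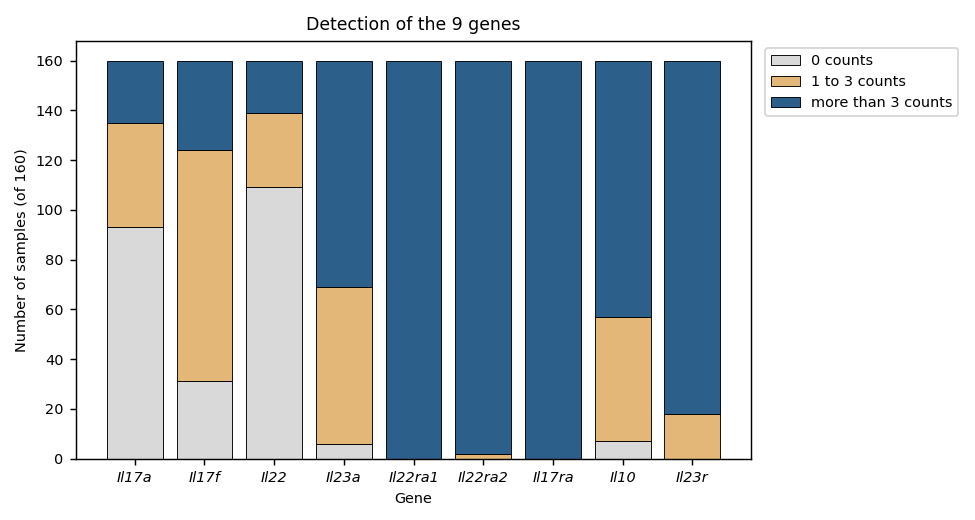
Number of samples, of 160, in which each gene had 0 counts, 1 to 3 counts or more than 3 counts. *Il17a*, *Il17f* and *Il22* stayed at or under 3 counts in 135, 124 and 139 samples, whereas *Il22ra1* and *Il17ra* exceeded 3 counts in all 160.

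*Il17a*, which encodes the founding IL-17 cytokine, gave 351 counts over all 160 libraries. Its mean was 0.332 CPM ± 0.549 (SD, n = 16) in *Nckap1l* knockouts and 0.333 ± 0.569 (n = 15) in their wild types, and between 0.0416 and 0.145 in the other 6 groups. The median was 0 CPM in 5 of the 8 groups, and the others were at 0.03 to 0.0576. The 5 highest samples held 34.4% of its CPM summed over all samples, and 25 samples had more than 3 counts. *Nckap1l* wild type 10 had 2.09 CPM (38 counts), *Nckap1l* knockout 8 had 1.96 and *Dok3* knockout 9 had 1.29. High samples were thus present in both genotypes and in more than 1 line.

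*Il17f*, the paralog of *Il17a* that forms dimers with it, averaged 0.11 to 0.31 CPM by group, with group medians of 0.0599 to 0.131. The highest samples were *Nckap1l* wild type 15 at 1.97 CPM, *Dock2* wild type 13 at 1.51 and *Nckap1l* knockout 8 at 1.21. Although the 2 genes are paralogs, no run of 100 bases, the length of the reads, is shared between the *Il17a* or *Il17f* transcripts and any other gene.

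*Il22*, which encodes the cytokine that signals to epithelium, was the most uneven of the 9. Its median was 0 CPM in all 8 groups, and the highest sample held 30.2% and the 5 highest 64.7% of its CPM summed over all samples. *Nckap1l* wild type 15 had 7.89 CPM (128 counts), *Dock2* wild type 13 had 5.49 (51 counts) and *Gpsm3* knockout 4 had 1.63 (27 counts). The first 2 were also the highest for *Il17f*, with 0.617 and 0.43 CPM of *Il17a*, whereas *Gpsm3* knockout 4 had 0.0604 CPM of *Il17a*. The largest *Il22* values were therefore single libraries of 3 different groups. *Nckap1l* wild type 15 was also one of the skin-marker libraries. The mouse genome holds a near copy of *Il22*, *Iltifb* (ENSMUSG00000090461, chr10:118289629-118295038, minus strand), and 206 of 1011 windows of 100 bases (20.4%) in the *Il22* transcript are identical in it. Reads from those windows cannot be assigned to 1 gene. *Iltifb* had 18 counts in all and 0 in 148 samples, so the *Il22* values are uncertain by the reads that the copy shares.

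*Il23a*, which encodes the p19 subunit of IL-23, was low but spread evenly, with group means of 0.215 to 0.396 CPM and a highest sample, *Dok3* wild type 13, of 1.22 CPM. *Il12b*, which encodes the other subunit of IL-23, averaged 0.278 CPM. *Il23r*, the receptor subunit specific to IL-23, averaged 0.439 to 0.753 CPM by group and had at least 1 count in every sample. Its partner *Il12rb1* averaged 1.02 CPM.

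*Il22ra1*, the chain that confines the IL-22 response to epithelium and other non-blood cells, varied least of the 9 genes relative to its mean (59.7 CPM ± 13.6 over all samples), with group means between 53.9 CPM ± 10.4 (n = 15, *Nckap1l* wild type) and 63.0 ± 13.6 (n = 20, *Gpsm3* knockout). The lowest sample, *Dok3* knockout 17, had 13 CPM, and *Dok3* knockout 11 had 107. *Il10rb*, which encodes the second chain of the IL-22 and IL-10 receptors, averaged 50.8 CPM. *Il17ra* had group means between 30.2 CPM ± 5.33 (n = 18, *Dock2* knockout) and 39.4 ± 26.5 (n = 26, *Dok3* knockout). Group medians of *Il17ra* lay between 29.6 and 32.5 CPM, so the groups differed mainly in their highest samples. *Dok3* knockout 17, lowest for *Il22ra1*, was highest for *Il17ra* at 159 CPM, and *Dok3* wild type 18 followed at 107. *Il17rc*, the chain that pairs with IL-17RA, averaged 84.4 CPM.

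*Il22ra2*, the decoy receptor that dendritic cells make in the resting colon, was lowest in the *Nckap1l* line and highest in the *Dok3* line. Skin-marker libraries averaged less of it than the others in each line. The means were 1.76 against 2.17 CPM in *Nckap1l*, 0.729 against 3.18 in *Dock2*, 1.91 against 3.19 in *Gpsm3* and 1.98 against 5.58 in *Dok3*. The part of these libraries in the *Il22ra2* levels was not tested. In *Nckap1l* knockouts *Il22ra2* ran from 0.511 through a median of 1.36 to 6.55 CPM, and in their wild types from 0.496 through 1.71 to 6.26. In *Dock2* it ran from 0.372 through 2.45 to 6.64 in knockouts and from 0.286 through 2.78 to 8.16 in wild types. In *Gpsm3* the lowest, median and highest were 0.118, 2.11 and 9.43 CPM in knockouts and 0.486, 3.58 and 6.95 in wild types. The ranges of knockouts and wild types overlapped in each of these 3 lines. In *Dok3* knockouts the values were 0.752, 4.61 and 11.4, and in wild types 0.382, 4.74 and 9.58, again overlapping. Means were 1.67 CPM ± 1.38 (n = 16) and 2.30 ± 1.71 (n = 15) for *Nckap1l* knockout and wild type, 2.38 ± 1.39 (n = 18) and 3.27 ± 2.22 (n = 24) for *Dock2*, 2.49 ± 2.15 (n = 20) and 3.69 ± 2.06 (n = 20) for *Gpsm3*, and 5.00 ± 2.90 (n = 26) and 4.76 ± 3.05 (n = 21) for *Dok3*.

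*Il10* was above the floor in most samples but skewed. In *Nckap1l* knockouts it ran from 0.191 through a median of 0.421 to 2.30 CPM, and in wild types from 0.187 through 0.612 to 4.08. In *Dock2* it ran from 0 through 0.229 to 0.727 CPM in knockouts and from 0.0636 through 0.282 to 3.98 in wild types. In *Gpsm3* it ran from 0.111 through 0.413 to 2.28 in knockouts and from 0 through 0.205 to 2.43 in wild types. Of these 3 lines *Gpsm3* was the one whose knockouts had the higher median, and the ranges overlapped in all 3. *Dok3* knockouts and wild types had medians of 0.294 and 0.296 and highest samples of 6.91 (knockout 17) and 8.27 (wild type 18), the 2 samples with the most *Il17ra*.

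When the 8 groups were put in order of their mean for each gene, none of the 63 pairs of neighbours in these orders differed by more than the larger of their SDs, which describes the spread and is no test, since neighbours in such an order are the closest pairs.

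**Figure D2:**
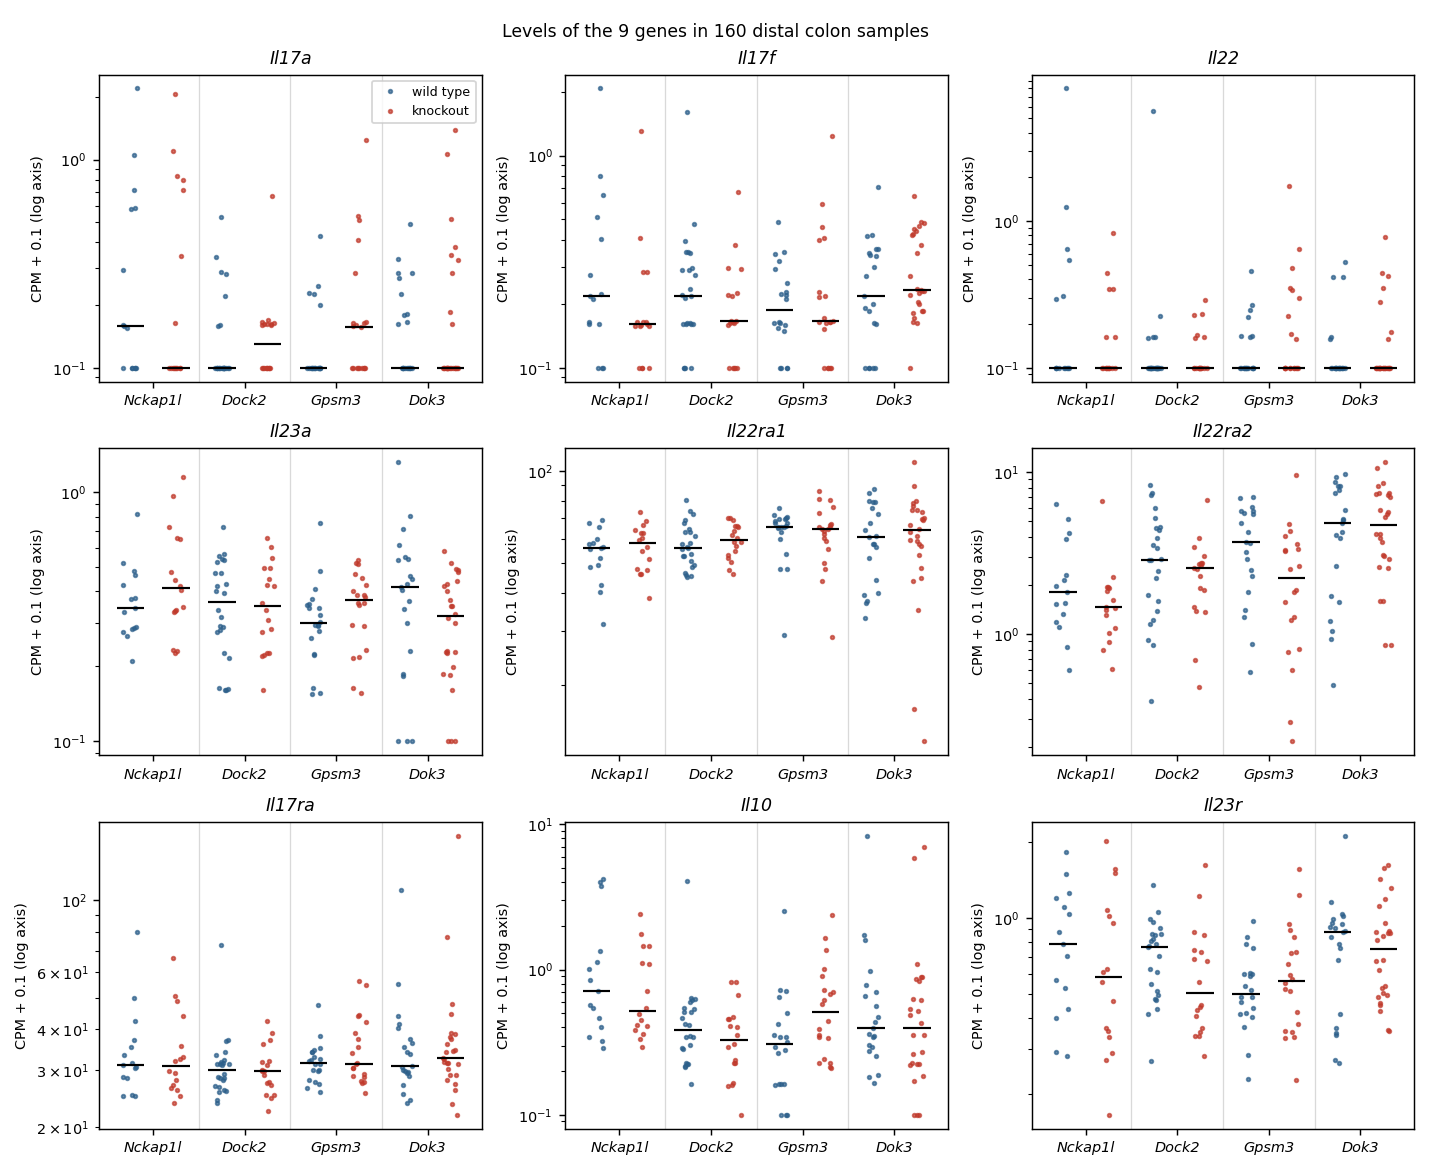
Level of each gene in every sample, by line and genotype, as CPM on a log axis after adding 0.1, 1 point per sample, with a line at each group's median and a separate vertical range for each gene. *Il22ra1* runs from 13 to 107 CPM and *Il17ra* from 21.7 to 159, *Il17a* and *Il22* are at 0 in 93 and 109 samples with single high samples, and knockout and wild-type points overlap in every line.

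The main comparison asked whether loss of each gene changed the levels of the 9. None of them passed the test in any line. The test was edgeR's quasi-likelihood test, adjusted for sex where a line held both sexes, with Benjamini-Hochberg adjustment over all genes. It could be run on the members that passed the filter on low counts: 5 in *Nckap1l*, 4 in *Dock2* and *Dok3*, and 3 in *Gpsm3*. *Il17a*, *Il17f*, *Il22* and *Il23a* were removed by the filter in every line. Of all genes tested, adjusted p was under 0.05 for 0% in *Nckap1l*, 0.034% in *Dock2*, 0.00569% in *Gpsm3* and 0% in *Dok3*, so few genes of any kind passed. At an unadjusted p under 0.05 the background was 4.5%, 5.1%, 4.86% and 2.19% in the same order, and the members gave 0 in all 4 lines by edgeR, by DESeq2 and by limma-voom.

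For *Il22ra1* the interval was narrow. Its log2 fold change, knockout minus wild type, was 0.03 (SE 0.10) in *Nckap1l*, 0.04 (SE 0.07) in *Dock2*, 0.01 (SE 0.10) in *Gpsm3* and 0.03 (SE 0.15) in *Dok3*. *Il17ra* gave -0.02 (SE 0.17), -0.06 (SE 0.10), 0.15 (SE 0.09) and 0.10 (SE 0.18) in the same order. *Il22ra2* gave -0.34 (SE 0.38), -0.37 (SE 0.28), -0.56 (SE 0.35) and 0.07 (SE 0.30), lower in the knockouts of the 3 C57BL6/J lines and close to 0 in *Dok3*, each with an SE that leaves room for a difference. *Il23r* was tested in 3 lines and gave 0.01 (SE 0.39) in *Nckap1l*, -0.21 (SE 0.22) in *Dock2* and -0.01 (SE 0.22) in *Dok3*. *Il10*, tested in *Nckap1l*, gave -0.69 (SE 0.47, unadjusted p = 0.153), and -1.26 (SE 0.56, unadjusted p = 0.0357, adjusted p = 0.991) in males only. Whether the knockout effects differed between the 4 lines was tested in a single fit of all 160 samples, in which 0.69% of genes passed. The 5 members tested had adjusted p = 0.9996 each, the lowest unadjusted p being 0.173 for *Il10*.

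**Figure D3:**
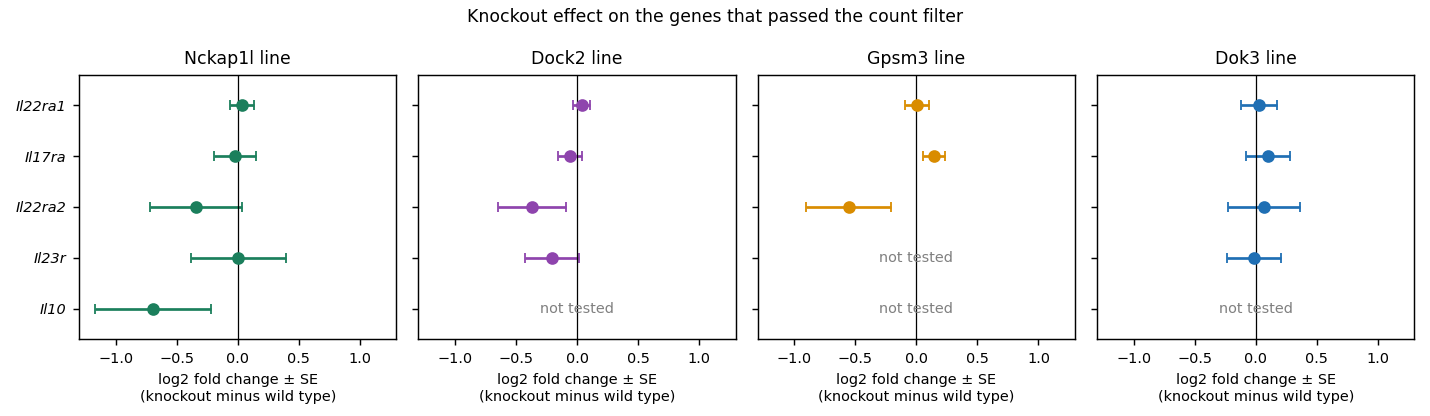
Log2 fold change, knockout minus wild type, of each tested gene in each line, with bars of 1 SE either side, from edgeR. *Il22ra1* sits near 0 in all 4 lines with SEs of 0.07 to 0.15, and *Il22ra2* is at -0.34, -0.37 and -0.56 in the *Nckap1l*, *Dock2* and *Gpsm3* lines and 0.07 in *Dok3*.

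To give a value for all 9 genes, including those under the filter, the difference in mean log2 CPM was also compared by a two-sided permutation test within sex, 36 tests in all and unadjusted. In the *Gpsm3* line *Il10* was higher in knockouts, with -0.84 ± 0.98 (SD) against -1.57 ± 1.06 on the log2 CPM scale, a difference of 0.73 (permutation p = 0.029). *Il22ra2* was lower in the same line by a log2 difference of -0.77 (permutation p = 0.0497). The neutrophil markers, with which *Il10* rose and *Il22ra2* fell across samples, had a median log2 fold change of 0.99 in the same comparison, 0 of 5 at unadjusted p under 0.05. Their part in both permutation values was not tested. In an edgeR fit of this line with their mean as covariate, 1 of the 3 members tested was under unadjusted 0.05, against 0 without the covariate. That fit called 0 members at adjusted p and did not include *Il10*, and the share of all genes at unadjusted p was not computed for it. On the linear CPM scale neither passed, with permutation p = 0.171 for *Il10* and 0.0781 for *Il22ra2*. The other 34 differences had permutation p of 0.05 or more. The number under 0.05 among the 36 tests was near what that threshold passes where no group differs. Leaving out 1 library turned the direction in 14 of the 36. Single libraries set the ratios of means in *Il22*: the log2 ratio of the *Dock2* groups was -2.77 with all samples and 1.40 without wild type 13, and that of the *Nckap1l* groups was -2.71 and, without wild type 15, -0.77. For *Il10*, the ratio in *Dok3* went from -0.04 to 0.83 without wild type 18, and in *Dock2* from -0.70 to -0.10 without wild type 13.

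Within runs of consecutive sample numbers, *Il22ra2* in *Gpsm3* was lower in knockouts in both, with 3.19 CPM against 3.97 in the first run and 1.79 against 3.42 in the second (n = 10 each). In *Nckap1l* the direction differed between runs. *Il22ra2* was 1.33 CPM in knockouts and 1.89 in wild types in run 1 (n = 6 and 8), 2.37 and 1.08 in run 2 (n = 5 and 4), and 1.36 and 5.03 in run 3 (n = 5 and 3), where the groups did not overlap, at 0.909 to 1.85 and 3.76 to 6.26. Sex was unequal in run 3, with 4 male and 1 female knockouts against 1 male and 2 female wild types. Wild type 15 of that run was also a skin-marker library. *Il10* in *Gpsm3* was higher in knockouts in both runs, at 0.402 against 0.226 CPM and 0.756 against 0.442.

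Without the skin-marker libraries, a choice made after seeing the data, *Il10* in *Nckap1l* averaged 0.453 CPM in 9 knockouts and 2.03 in 7 wild types, a log2 fold change of -2.15 (SE 0.60, unadjusted p = 0.00258, adjusted p = 0.36, edgeR). *Il17ra* in the same line gave -0.50 (SE 0.22, unadjusted p = 0.0369, adjusted p = 0.365), and *Il22ra2* in *Dock2* gave -0.49 (SE 0.23, unadjusted p = 0.04, adjusted p = 0.944). These were 2 of 4 members tested in *Nckap1l* and 1 of 4 in *Dock2*. The share of all genes under an unadjusted 0.05 was not computed for these fits, so the counts have no background beside them. The permutation test without them had p = 0.0263 for *Il10* and 0.0469 for *Il17f* in *Nckap1l*, 0.0287 for *Il23r* in *Dock2* and 0.0294 for *Il10* in *Gpsm3*. None passed over all genes. With all samples *Il10* in *Nckap1l* was 1.05 and 0.848 CPM in knockouts and wild types in run 1, 0.812 and 2.41 in run 2 and 0.338 and 0.641 in run 3. The part of the skin and muscle tissue in these values was not tested. Nor was that of neutrophil RNA, with which *Il10* and *Il17ra* rose across samples. Outside the skin-marker libraries, wild types 8, 10 and 11 had 3.88, 4.08 and 3.64 CPM of *Il10*. Their neutrophil marker means were 4.45, 6.37 and 5.36 log2 CPM. The highest knockout there, knockout 9, had 1.35 CPM of *Il10* and a neutrophil marker mean of 4.68.

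**Figure D4:**
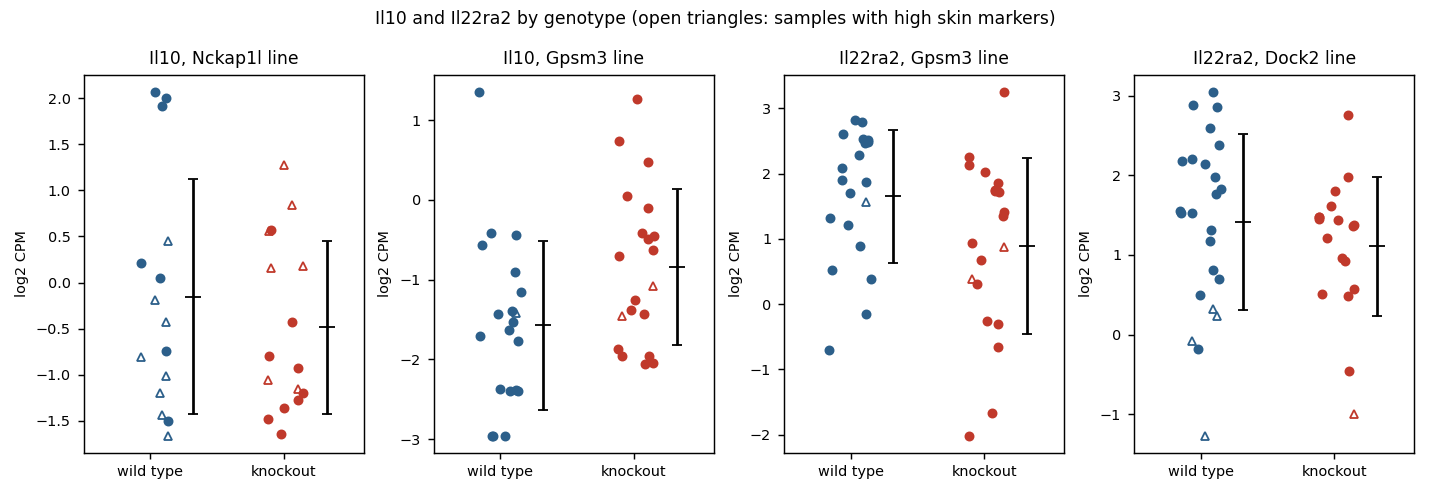
Level (log2 CPM, vertical axis) of *Il10* in the *Nckap1l* and *Gpsm3* lines and of *Il22ra2* in the *Gpsm3* and *Dock2* lines, 1 symbol per sample by genotype, with the mean and SD as a bar to the right of each group and open triangles for skin-marker libraries. Genotypes overlap in each panel, and the *Gpsm3* panels differ in mean by 0.73 for *Il10* and -0.77 for *Il22ra2*, knockout minus wild type.

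Male and female mice were compared in the 2 lines that held both. In *Dock2*, *Il22ra2* was lower in males, at 2.15 CPM ± 1.52 (n = 22) against 3.70 ± 2.06 (n = 20), ranging from 0.286 through a median of 1.73 to 7.14 in males and from 0.372 through 3.12 to 8.16 in females. The log2 fold change was -0.74 (SE 0.28, unadjusted p = 0.0104, adjusted p = 0.0793, edgeR), which did not pass at 0.05 over all genes. The neutrophil markers had a median log2 fold change of 1.27 in the same comparison, higher in males with 2 of 5 at unadjusted p under 0.05, and their part in the *Il22ra2* value was not tested. Without the skin-marker libraries the log2 fold change of *Il22ra2* was -0.68 (SE 0.23, adjusted p = 0.034, edgeR), which did pass. That fit called 3202 of 17525 genes and 1 of 4 members. With all samples of that line, 9.75% of all genes passed at adjusted p and 25.6% at unadjusted p, and 1 of 4 members at the latter. Females were 2 of the first 21 *Dock2* samples by number and 18 of the last 21, so sex and sample order cannot be told apart. In *Nckap1l*, *Il23r* averaged 0.558 CPM in 19 males and 0.94 in 12 females, with a log2 fold change of -0.76 (SE 0.37, unadjusted p = 0.0474, adjusted p = 0.312). There 0.178% of genes passed at adjusted and 15.7% at unadjusted p, and the skin-marker libraries were 9 of 12 females and 6 of 19 males.

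Within each line, several of the 9 genes varied from sample to sample along with neutrophil marker RNA. The 6 neutrophil markers (*Csf3r*, *Cxcr2*, *Retnlg*, *Mmp8*, *Clec4d* and *Il1r2*) summed to 1.43 to 2180 CPM over the samples and were all detected. Within each line 18 relations were computed, 72 in all, with Benjamini-Hochberg adjustment over them. Those of *Il17a* with the neutrophil markers were planned, and those of the other members with them were added after seeing the data. Treated and untreated mice may be mixed in each line, and whether a relation holds within either of them was not tested. The 2 measures of a relation come from the same libraries. The permutation tests drew 100000 resamples, so 1e-05 is the smallest p they can give.

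*Il17ra* rose with the neutrophil markers in all 4 lines, with Pearson's r of 0.80 to 0.85 and Spearman's rho of 0.68 to 0.72 (highest adjusted permutation p for rho = 0.00012). *Il10* did so with r of 0.67 to 0.88 and rho of 0.57 to 0.78 (adjusted p up to 0.000334). *Il22* had r of 0.47 to 0.63 and rho of 0.47 to 0.68 (adjusted p up to 0.00309), and *Il17a* r of 0.54 to 0.89 and rho of 0.37 to 0.84 (adjusted p up to 0.0261). The receptor of epithelium went the other way, and *Il22ra1* fell with the same markers, at r of -0.80 to -0.59 and rho of -0.71 to -0.53 (adjusted p up to 0.000562). *Il22ra2* had r of -0.81 to -0.38 and rho of -0.69 to -0.32, with an adjusted permutation p under 0.05 for rho in 3 lines and for r in all 4. *Il23r* had rho of 0.26 to 0.68, past the threshold in 3 lines, and *Il17f* (rho -0.09 to 0.56) and *Il23a* (-0.22 to 0.50) passed in 1 each. *Il17a*, *Il22*, *Il10* and *Il17ra* were thus high, and *Il22ra1* and *Il22ra2* low, in the samples rich in neutrophil RNA.

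Single samples followed this only in part. *Dok3* knockout 17 and wild type 18 ranked 1 and 2 of 160 for neutrophil markers and had 159 and 107 CPM of *Il17ra*, 6.91 and 8.27 of *Il10*, and 0.759 and 0.382 of *Il22ra2*, but 0.228 and 0.127 of *Il17a* and 0.0759 and 0.318 of *Il22*, far below the highest samples for those cytokines. *Dok3* knockout 1, at rank 137, had the most *Il22ra2*, 11.4 CPM, with no count of *Il10*, *Il17a* or *Il22*. The largest *Il22* values followed this order only in part: *Nckap1l* wild type 15 ranked 39, *Dock2* wild type 13 ranked 3 and *Gpsm3* knockout 4 ranked 111.

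**Figure D5:**
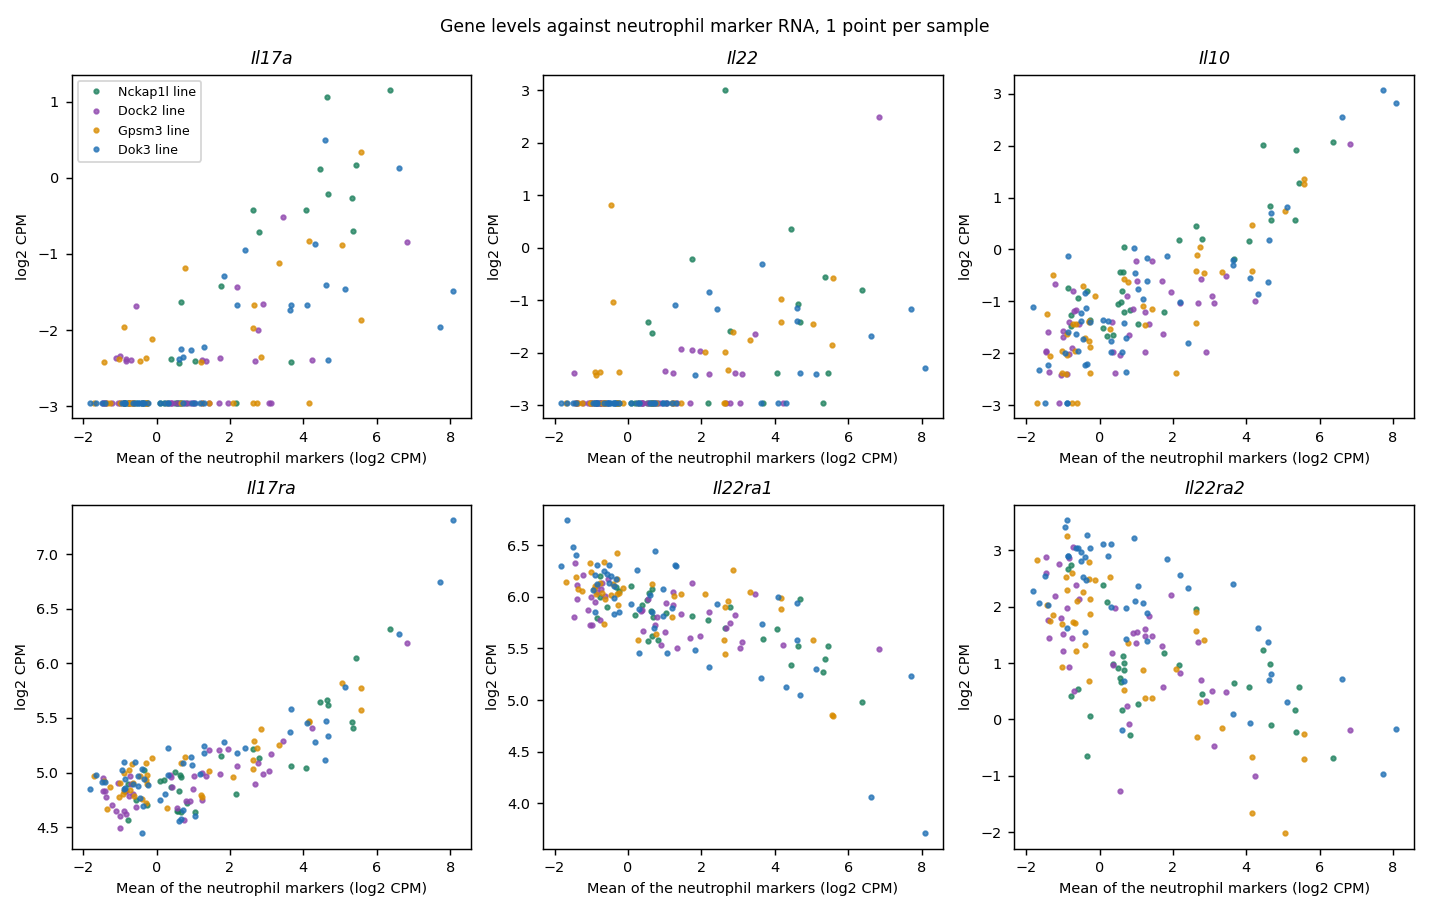
Level of 6 of the genes (log2 CPM, vertical axes) against the mean of the neutrophil markers (log2 CPM, horizontal axes), 1 point per sample, coloured by line. *Il17ra* and *Il10* rise and *Il22ra1* and *Il22ra2* fall along the axis, and many *Il17a* and *Il22* points lie on the floor of 0 counts.

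Leaving out the 2 samples farthest from the median on the x axis removed the relation of *Il17a* with neutrophil markers in *Dock2*, where r went from 0.54 to 0.28 (permutation p = 0.0763), so it rested on those samples. It also removed r in *Dock2* for *Il17a* with *Il17f* (0.42 to -0.09, permutation p = 0.596) and with *Il22* (0.57 to 0.15, permutation p = 0.378), in *Gpsm3* for *Il17a* with *Il17f* (0.51 to 0.20, permutation p = 0.23), in *Nckap1l* for *Il22ra2* with neutrophil markers (-0.38 to -0.25, permutation p = 0.2) and in *Dok3* for *Il17f* with them (0.36 to 0.29, permutation p = 0.0534). The same happened in *Gpsm3* for *Il17a* with *Il22* (0.45 to 0.26, permutation p = 0.1) and for *Il23r* with neutrophil markers (0.39 to 0.23, permutation p = 0.167). Within runs of sample numbers, the rho of *Il17ra* with neutrophil markers lay between 0.43 and 0.90 and that of *Il22ra1* between -0.89 and -0.45. For *Il22ra2* it lay between -0.80 and -0.33 in 6 of the 7 runs, and it was 0.10 in *Nckap1l* run 3, where 8 samples were available.

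The cytokines moved partly together. *Il17a* and *Il22* had rho of 0.31 to 0.75, past the threshold in 3 lines, and *Il17a* and *Il17f*, neighbours on chromosome 1, had rho of 0.05 to 0.63, past it in 2 lines, with r of 0.42 to 0.73. Neither followed *Il23a* closely. *Il17a* with *Il23a* had rho of -0.04 to 0.44, passing in 1 line, and *Il22* with *Il23a* had -0.01 to 0.36, passing in none. The antimicrobial lectin genes *Reg3b* and *Reg3g*, textbook targets of IL-22, had rho of 0.30 to 0.66 with *Il22* and passed in 3 lines, with r of 0.10 to 0.51. *Il10* with *Il22ra2* had rho of -0.64 to -0.24 and passed in 2 lines, as did *Il22* with *Il22ra2* at -0.42 to 0.01. *Il10* rose with T cell markers (rho 0.48 to 0.64) and *Il17ra* with macrophage markers (rho 0.61 to 0.76) in all 4 lines.

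The genes whose pattern was most like each member were found by the mean over lines of the within-line Spearman rho, over all 160 samples in 4 lines and among genes with a mean log2 CPM of at least 0. For *Il22ra1* they were *Max* (0.835), *Dyrk2* (0.83) and *Mgat4a* (0.82), and for *Il17ra* *Inpp5d* (0.82), *Plek* (0.817) and *Trim30b* (0.817). For *Il10* they were *Crlf2* (0.74), *Lrrc25* (0.732) and *Plek* (0.726). *Plek* was thus shared by *Il17ra* and *Il10*. *Il22* was most like *Socs3* (0.665), an inhibitor that STAT3 signalling induces, *Bcl3* (0.665) and *Tnfrsf1b* (0.663). *Il17a* was most like *Vmp1* (0.675), *Fas* (0.668) and *Zc3h12a* (0.663), the last encoding an RNase that degrades inflammatory mRNAs. *Il22ra2* was most like *Sspo* (0.644), *Upb1* (0.638) and *Htr4* (0.626), and *Il23r* like *Arhgdib* (0.633), *Myo1g* (0.629) and *Il16* (0.62), which lymphocytes express. *Il17f* reached 0.471 with *Tnfaip3*, 0.455 with *Ptpn2* and 0.429 with *Cd83*, and *Il23a* no more than 0.299, with *Entpd3*, then 0.292 with *Plekhs1* and 0.29 with *Rnf144a*.

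Other genes of the pathway were read from 5 lists. Of 14 ligands and inducers, 4 or 5 were tested in a line, of 10 receptors 10, of 8 signalling genes 8, of 10 lineage transcription factors 9, and of 17 epithelial and stromal targets 13 or 14. No list gene passed at adjusted p in any knockout comparison. At unadjusted p, 7 of 14 targets in *Dock2* had higher values in knockouts and 0 had lower ones, with a median log2 fold change of 0.34 against -0.003 over all genes and beside the 5.1% of all genes under 0.05 given above. *Muc1*, a membrane mucin, gave 0.40 (SE 0.11, unadjusted p = 0.000743, adjusted p = 0.226), and *Saa1*, an acute-phase gene, 0.57 (SE 0.19, unadjusted p = 0.00399). The others were *Saa2*, *Pigr*, *Nos2* and the oxidase genes *Duox2* (0.62) and *Duoxa2* (0.72). In *Nckap1l*, *Muc1* gave 0.67 (SE 0.16, unadjusted p = 0.000247, adjusted p = 0.317), the one target of 14 under 0.05 there, beside 4.5% of all genes.

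Among receptors, *Ccr6*, which guides Th17 cells and B cells, gave -1.998 (SE 0.62, unadjusted p = 0.00284, adjusted p = 0.83) in *Nckap1l* and -0.75 (SE 0.24, unadjusted p = 0.00367, adjusted p = 0.492) in *Dock2*. In both lines 5 of 5 B cell markers were also lower at unadjusted p, with medians of -2.60 and -0.86, beside 4.5% and 5.1% of all genes under 0.05 in the 2 lines, and their part in the *Ccr6* values was not tested. In *Gpsm3*, *Cxcl1*, a neutrophil chemokine that IL-17 induces, gave 1.33 (SE 0.55, unadjusted p = 0.0206), *Il10ra* 0.54 (SE 0.24, p = 0.0274), *Socs3* 1.04 (SE 0.48, p = 0.0362) and *Jak2* 0.15 (SE 0.06, p = 0.0215), each with adjusted p = 0.936 and beside 4.86% of all genes under 0.05. The neutrophil markers had a median of 0.99 there. In *Dok3*, where 2.19% of all genes were under 0.05, the one gene of the 5 lists to be so was *Gata3*, the factor of type 2 lymphocytes and 1 of 9 lineage factors tested, at -1.36 (SE 0.66, unadjusted p = 0.0438).

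Between the sexes, 3 of 14 targets passed over all genes in *Dock2*, where 9.75% of all genes did. *Nos2*, inducible nitric oxide synthase, gave 2.69 (SE 0.64, adjusted p = 0.00588) and *Lcn2*, an antimicrobial siderophore-binding protein, 1.96 (adjusted p = 0.0132), both higher in males, while *Muc1* gave -0.53 (SE 0.11, adjusted p = 0.00177). The neutrophil markers had a median of 1.27 in the same direction as *Nos2* and *Lcn2*, and sex was confounded with sample order as above.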

How the data were processed

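RNA was sequenced from 160 distal colons (ribosomal RNA-depleted, stranded libraries, single-end reads). The authors deposited raw counts per Ensembl gene for each sample, made with STAR and featureCounts on mm10 per the labels and the submitters' processing notes; versions and the strand setting are not given in the sources used here. Groups came from the labels. Members and lists were chosen with earlier results of these data known. Symbols came from a table of Ensembl gene names and matched 37607 of 39179 IDs, and positions came from GENCODE M21. Counts were tested with edgeR 4.0.16 (quasi-likelihood, TMM, filterByExpr) per line, with Benjamini-Hochberg adjustment over all genes and a threshold of 0.05. DESeq2 1.42.0, limma-voom (limma 3.58.1) and sva 3.50.0 served as alternatives, R was 4.3.3, and scripts were tested on simulated data. Log2 CPM used a prior count of 2, and permutation tests and correlations 100000 resamples in SciPy 1.17.1. Samples are single mice, as far as the labels say. The text names all 9 members, per list the genes past the threshold or otherwise the 2 with the smallest p where a list is described, and the 3 most alike genes per member. List genes named beyond that rule were named after their values were seen. The knockout of Aif1 was not analysed here, and 1 pathway gene is not reported here.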

Additional observations from a re-analysis of the deposited data

How the results depend on the processing

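No member was called in any knockout comparison under the alternatives run (DESeq2, limma-voom, filters, size factors, covariates, males only, left-out libraries). Counts of called genes did move. In *Nckap1l* they went from 0 to 21 with DESeq2, 27 with no filter, 82 with 2 surrogate variables and 1 with the neutrophil markers as covariate. In *Dock2* they went from 6 to 69 with DESeq2, 0 with limma-voom, 31 with no filter, 1 with at least 10 counts in every sample, 1 at adjusted p under 0.01, 1 in males only, 93 with surrogate variables, 10 with the neutrophil covariate and 79 without the skin-marker libraries. In *Gpsm3* they went from 1 to 4, 32 and 0 with DESeq2, no filter and at least 10 counts, and to 2 without skin-marker libraries, and in *Dok3* from 0 to 3 with DESeq2 and 15 with no filter. For sex, *Nckap1l* went from 32 to 192 with DESeq2, 55 with no filter, 12 with the run as covariate, 9 in wild types only and 9 without skin-marker libraries, and *Dock2* from 1721 to 358 in wild types and 3202 without skin-marker libraries, where 1 member, *Il22ra2*, was called. Genes with differing knockout effects between lines went from 137 to 390 without those libraries. In that test, members under unadjusted 0.05 went from 0 of 5 to 2 of 5 without skin-marker libraries. They were 2 of 9 with no filter and 1 of 5 in the C57BL6/J lines only, and 0 members were called each time. The share of all genes at unadjusted p was not computed for this test, so these member counts have no background beside them. The cause of these moves was not tested. Signs turned for *Il22ra2* in *Nckap1l* (0.065 in males only) and *Dok3* (-0.024 with surrogate variables), and for *Il17ra* in *Nckap1l* (0.001 with limma-voom, 0.059 with the run, 0.053 with surrogate variables, 0.025 with the neutrophil covariate). Members under 0.05 in the permutation test became 2 in *Nckap1l* and 1 in *Dock2* (from 0), and 1 in *Gpsm3* (from 2), without skin-marker libraries, and 0 in *Gpsm3* on linear CPM. With no filter, unadjusted p (edgeR) was under 0.05 for *Il22* in *Dock2* (-2.20), 1 of 9 members. In *Gpsm3* it was so for 2 of 9, *Il17a* (1.57) and *Il22* (1.64). None was called at adjusted p, and the share of all genes at unadjusted p was not computed for these fits. *Il22* was at or under 3 counts in 41 of 42 *Dock2* and 34 of 40 *Gpsm3* samples, and *Il17a* in 35 of 40 *Gpsm3* samples. Without *Dock2* wild type 13 the log2 ratio of the *Il22* means went from -2.77 to 1.40. Of 72 relations, 49 passed by rho with all samples and 45 without the 2 farthest. No paired analysis was possible because the labels do not give litter or cage, and equal replicate numbers in different groups do not mark pairs. At these depths *Il17a*, *Il17f*, *Il22* and *Il23a* were at or under 3 counts in 135, 124, 139 and 69 of 160 samples, which limits what their values can show. *Il17a* and *Il22* had no count in 93 and 109 of them.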
